A study of Mus musculus with 18 samples.

Results

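Chemokine ligands are small secreted proteins that direct the movement of blood cells, and the 8 described here are Ccl3, Ccl4, Ccl5, Ccl6, Ccl9, Cxcl2, Cxcl10 and Cxcl12. They were chosen by symbol, and all 8 were found among the 19780 genes of the LSK table and among the 18428 genes of the CMP table. Of 29 other chemokine ligands that were looked for, 17 were in each table. RNA of sorted mouse bone marrow cells was sequenced in 18 samples, 3 in each of 6 groups. LSK (lineage-negative Sca-1+ c-Kit+ cells) hold the stem and early progenitor cells. CMPs (common myeloid progenitors) are cells from which granulocytes and monocytes, among other blood cells, descend. NZBW/F1 mice, the first-generation cross of NZB and NZW parents, develop lupus without any treatment. F1-P mice were NZBW/F1 females of 12 weeks, before disease, and F1-L mice were NZBW/F1 females of 28 to 36 weeks with clinical disease, defined in the study by proteinuria. B6-Y and B6-O mice were C57BL/6 females of 12 weeks and of 28 to 36 weeks, and no C57BL/6 CMP samples were analysed here. F1-L mice were thus both older and diseased, and the effect of either alone cannot be told apart in CMPs. The sort for LSK took cells without CD11b, Gr-1, Ter119, B220 and CD16/32, and the study's methods give the same exclusions with CD34+ Sca-1+ c-Kit+ for CMPs. Nothing in the labels says that the 3 samples of a group came from separate mice, so p-values measure the spread between these samples.

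Chemokines bind receptors on moving cells and draw them along a gradient. In the bone marrow Cxcl12, made mainly by stromal cells, holds stem cells and neutrophils in place through its receptor Cxcr4, while Cxcl2 draws neutrophils out through Cxcr2. Ccl3 and Ccl4 are made by activated myeloid and lymphoid cells and attract monocytes and lymphocytes, and Ccl5 is a product of T and NK cells. Ccl3 and Ccl5 bind Ccr1, as do Ccl6 and Ccl9, which are CC chemokines of mouse myeloid cells. Cxcl10 is induced by interferon and attracts T cells through Cxcr3.

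The 5 CC members lie in one stretch of chromosome 11 that spans 139 kb, from 83525778 to 83664683 on GRCm38, in the order Ccl5, Ccl9, Ccl6, Ccl3 and Ccl4. Ccl5 (83525778 to 83530518), Ccl9 (83572919 to 83578636), Ccl6 (83587882 to 83593087) and Ccl3 (83647844 to 83649355) are read from the minus strand and Ccl4 (83662584 to 83664683) from the plus strand. Cxcl2 (90903871 to 90905938, plus strand) and Cxcl10 (92346638 to 92348889, minus strand) lie on chromosome 5, and Cxcl12 (117168535 to 117181367, plus strand) on chromosome 6. Ccl6 overlaps the opposite-strand gene E230016K23Rik and Cxcl10 overlaps Art3. The library kit did not mark strand, so reads of each pair could not be told apart where they overlap. RefSeq (GRCm38.p6) gave the 250 bases before its own start of 6 of the 8 members. Those of Cxcl2 and Cxcl10, the members with the largest differences between F1-L and F1-P CMPs on the log2(CPM + 1) scale, and of the neighbours Ccl6 and Ccl9, whose values are set side by side, are shown 5′ to 3′ on the gene's strand. Capitals mark matches on either strand to TATAAA, to the NF-kB consensus or to the interferon response element core TTTCNNTTTC.
Cxcl2, chr5:90903649-90903898, plus strand: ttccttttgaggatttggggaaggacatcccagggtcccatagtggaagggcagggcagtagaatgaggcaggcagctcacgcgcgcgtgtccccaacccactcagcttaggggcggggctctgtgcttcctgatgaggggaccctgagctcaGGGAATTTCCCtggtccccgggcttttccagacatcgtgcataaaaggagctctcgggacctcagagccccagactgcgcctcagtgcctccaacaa
Cxcl10, chr5:92348890-92349139, minus strand: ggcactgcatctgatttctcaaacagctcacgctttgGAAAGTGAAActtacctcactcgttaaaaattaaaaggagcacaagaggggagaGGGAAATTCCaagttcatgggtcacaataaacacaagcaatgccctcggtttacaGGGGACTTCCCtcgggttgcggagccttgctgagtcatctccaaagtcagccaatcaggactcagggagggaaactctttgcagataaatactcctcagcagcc
Ccl6, chr11:83593088-83593337, minus strand: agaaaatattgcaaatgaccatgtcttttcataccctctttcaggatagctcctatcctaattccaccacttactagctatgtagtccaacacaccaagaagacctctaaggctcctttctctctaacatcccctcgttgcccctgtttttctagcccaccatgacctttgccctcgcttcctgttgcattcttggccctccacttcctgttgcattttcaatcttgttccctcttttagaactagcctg
Ccl9, chr11:83578637-83578886, minus strand: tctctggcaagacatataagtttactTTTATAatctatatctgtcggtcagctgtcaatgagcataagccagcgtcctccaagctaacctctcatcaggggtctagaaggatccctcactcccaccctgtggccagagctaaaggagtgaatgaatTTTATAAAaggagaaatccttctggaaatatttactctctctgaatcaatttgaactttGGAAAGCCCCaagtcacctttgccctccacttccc

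The Cxcl2 window held an NF-kB match at 97 to 88 bases before the start and another on the opposite strand at 96 to 87, which overlap. Cxcl10 held NF-kB matches at 159 to 150, at 104 to 95 and, on both strands, at 103 to 94 bases before the start, the last ones overlapping. It also held an interferon response element core on the opposite strand at 213 to 204. Ccl9 held TATAAA at 92 to 87 and, on the opposite strand, at 224 to 219 and at 94 to 89, with an NF-kB match on the opposite strand at 35 to 26. The Ccl6 window held none of the 3 motifs, and neither did those of Ccl3 and Cxcl12. Among 32851 such windows of 250 bases, 12.4% held TATAAA, 7.25% the NF-kB consensus and 2.98% the interferon response element core. A match is a stretch of letters and not a measured binding site.

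Reads assigned to the listed genes, as recovered from the deposited values, lay between 23772252 and 28493747 for LSK and between 20001328 and 24761060 for CMP samples. Values are the deposited CPM, that is reads scaled to library size with the authors' factor for each sample. Samples of some groups stood apart in genes of other blood cells. The summed CPM of 11 neutrophil markers was 315, 6453 and 8442 in the 3 F1-P CMP samples and 85.8, 64.2 and 431 in F1-L. In LSK it was 499, 5441 and 485 in B6-Y, 1736, 832 and 10719 in B6-O, 301, 526 and 1281 in F1-P and 12373, 4905 and 1983 in F1-L. The summed CPM of 9 T and NK cell markers ranged over 52.8 to 82.8 in B6-Y, 68.7 to 113 in B6-O, 227 to 299.9 in F1-P and 205 to 439 in F1-L LSK, and over 11.5 to 48.2 in CMPs. No marker of these 2 lists was at 0 in any sample. Genes of the sort (Kit, Ly6a, Cd34 and 6 others of progenitors) had sums between 1553 and 2939 in LSK and between 805 and 1534 in CMPs. In such bulk samples fewer cells of a type and less RNA per cell cannot be told apart.

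Per kb of exon, Ccl5 had the highest mean level of the 8 members in NZBW/F1 LSK, where CPM per kb was 49.0 (F1-P) and 52.8 (F1-L). Ccl3 stood first in C57BL/6 LSK, at 76.0 in B6-Y and 50.9 in B6-O, and in F1-P CMPs, at 75.7. Ccl9 stood first in F1-L CMPs at 33.7. Cxcl12 had the lowest mean in all 6 groups, from 0.034 in F1-L CMPs to 2.20 in F1-P LSK. The length used was that of all annotated exons joined, 8176 bases for Cxcl12 and at most 3045 for the others. Without division by length, the mean CPM of Cxcl12 in F1-P LSK was 17.95, above Ccl6 (5.53), Cxcl2 (15.5) and Ccl4 (16.9). In every other group its mean CPM was also the lowest. Of the 7 pairs of neighbours in this order, the sample ranges overlapped in 5 pairs of B6-Y and F1-L LSK and in 6 pairs of each other group. The pairs whose ranges did not overlap were Ccl4 above Ccl9 in B6-Y and B6-O, Ccl4 above Cxcl10 in F1-P LSK and Cxcl2 above Cxcl10 in F1-L LSK. The step down to Cxcl12 was the other such pair in B6-Y, F1-L LSK and both CMP groups.

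**Figure D1:**
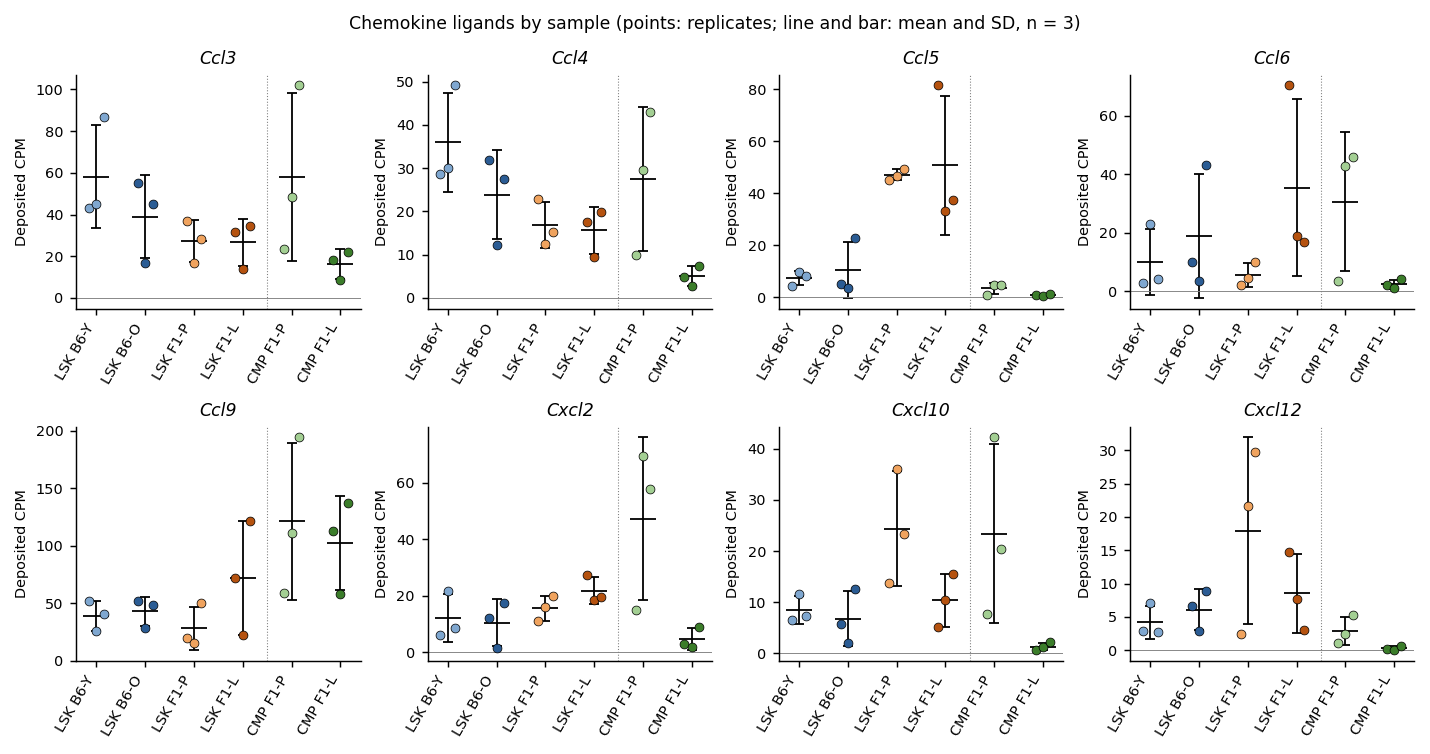
Deposited CPM of each chemokine ligand (y axis) in the 6 groups (x axis), with 1 point per sample and the mean and SD of the 3 samples as a line and bar. Ccl5 is high in all 6 NZBW/F1 LSK samples, and in CMPs the F1-L points lie below all F1-P points for Ccl3, Ccl4, Cxcl2, Cxcl10 and Cxcl12. LSK and CMP values come from separately normalized tables.

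In CMPs, all 8 ligands had lower estimates in F1-L than in F1-P, from −0.17 to −3.13 on the log2 scale with a median of −1.87, against 0.04 over all 12926 genes tested. These 8 include Cxcl12, which entered the test through its high F1-P values alone, so its part in the counts is a description. For 5 of the 8 members every F1-L sample lay below every F1-P sample, against 6.57% of all genes in that direction. With limma, which compares log2(CPM + 1) and adjusts p over all genes (a call needs adjusted p no higher than 0.05 and a change of over 1.5-fold), 0 of 8 were called, as was 0.00774% of all genes. The 1 gene called there was Col1a1, a collagen gene on the list of stromal markers, at a CPM of 6.63, 8.65 and 8.46 for F1-P against 0.0909, 0.0516 and 0.0995 for F1-L. Like Cxcl12, Col1a1 entered the test through its F1-P values alone, so this call is a description. At an unadjusted p below 0.05, 6 of the 8 members were lower, against 5.25% of all genes. With the likelihood ratio test of edgeR, the tool named in the methods, 5 of 8 were called lower (2.12% of all genes), with DESeq2 also 5 (2.72%), and with edgeR's quasi-likelihood test 0 (0.00774%).

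Cxcl10 had the largest difference. Its CPM was 7.64, 42.2 and 20.4 in the 3 F1-P samples and 0.727, 1.19 and 2.14 in F1-L. All 3 F1-L samples lay below the lowest F1-P sample. The means were 23.4 ± 17.5 and 1.35 ± 0.720 (SD, n = 3). In log2 terms the change was −3.13 (standard error 0.582, limma adjusted p = 0.352 and 2.97e-05 by the edgeR likelihood ratio test). The likelihood ratio test, which adds no 1 to the CPM, put the log2 fold change of Cxcl10 at −4.15.

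Cxcl2, the neutrophil attractant, had CPM values of 14.8, 69.2 and 57.8 in F1-P and 2.86, 1.81 and 9.01 in F1-L CMPs. The groups did not overlap, and F1-P replicates 2 and 3 were the high samples. On the log2 scale F1-L minus F1-P was −3.08 (standard error 0.701, limma adjusted p = 0.353 and 0.00366 by the edgeR likelihood ratio test). Ccl6 was at 3.41, 42.7 and 45.9 in F1-P and 2.14, 1.03 and 4.08 in F1-L. Here F1-P replicates 2 and 3 were high, and F1-P replicate 1 lay within the F1-L range. Its log2 fold change was −2.71 (standard error 0.946, limma adjusted p = 0.473 and 0.0140 by the edgeR likelihood ratio test).

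Ccl4, an attractant of monocytes and lymphocytes, was at 9.89, 29.5 and 43.0 in F1-P and 4.91, 2.79 and 7.31 in F1-L CMPs. The groups did not overlap. As a log2 fold change this was −2.10 (standard error 0.557, limma adjusted p = 0.394 and 0.00726 by the edgeR likelihood ratio test). Its neighbour Ccl3 was at 23.3, 48.6 and 102 in F1-P and 17.96, 8.36 and 22.2 in F1-L. These groups did not overlap either, but the lowest F1-P sample and the highest F1-L sample were close. The estimate on the log2 scale was −1.64 (standard error 0.579, limma adjusted p = 0.473, 0.0747 in edgeR's likelihood ratio test and 0.0345 in DESeq2), so DESeq2 called it and the other tests did not.

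Ccl5 and Cxcl12 were near the lower limit of the CMP table. Ccl5 was at 0.768, 4.59 and 4.66 in F1-P and 0.818, 0.465 and 1.14 in F1-L (log2 fold change −1.10, standard error 0.476, limma adjusted p = 0.521). One F1-P sample lay within the F1-L range. Cxcl12 was at 1.06, 2.43 and 5.21 in F1-P and at 0.227, 0 and 0.597 in F1-L. It passed the filter on low values (a CPM of at least 1 in 3 samples) only through the F1-P samples, so that without a difference it would not have been tested. Summed stromal markers, of the cells that make Cxcl12, were 26.1, 34.1 and 51.8 in F1-P and 28.6, 14.8 and 26.4 in F1-L, with 2 of the 7 in the table at 0 in F1-L replicates 1 and 2. Of the 4 that were tested, 3 (Col1a1, Col1a2 and Sparc) were lower in every F1-L sample and at an unadjusted p below 0.05, limma called Col1a1, and the likelihood ratio test and DESeq2 called Col1a1 and Sparc. These 3 markers were lower in F1-L as Cxcl12 was, while the other tested marker, Pdgfrb, was higher (log2 fold change 0.24). Col1a1, like Cxcl12, passed the filter only through the F1-P samples, and the part of the stromal markers was not tested. The F1-L sample without a Cxcl12 read allows a CPM of up to 0.155, the level of 3 reads, for counting error only. The log2 fold change of Cxcl12 was −1.49 (standard error 0.415, limma adjusted p = 0.396 and 0.0427 by the edgeR likelihood ratio test). Without Cxcl12, the counts above would be 4 of 7 members not overlapping, 5 of 7 lower at an unadjusted p below 0.05 and 4 of 7 called by the likelihood ratio test.

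Ccl9 stood apart from the other members in CMPs. Its CPM was 58.4, 111 and 194 in F1-P and 113, 57.5 and 137 in F1-L, ranges that overlapped. This came to a log2 fold change of −0.17 (standard error 0.497, limma adjusted p = 0.913). Ccl9 and Ccl6 lie side by side and bind the same receptor, and their per-kb ratio (Ccl6 over Ccl9) ranged from 0.0305 to 0.652 over the 6 CMP samples.

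The neutrophil markers moved with these ligands. All 11 were lower in F1-L CMPs at an unadjusted p below 0.05 and were called lower by edgeR's likelihood ratio test, 0 of them by limma after adjustment, with a median log2 fold change of −4.21. Among all genes, 5.25% were lower at that p and 2.12% were called lower by the likelihood ratio test. Summed B cell markers were 35.7, 126 and 128 in F1-P and 6.37, 5.32 and 12.5 in F1-L CMPs, and summed monocyte and macrophage markers 188, 461 and 719.7 and 327, 169.8 and 486. F1-P replicates 2 and 3 held the highest neutrophil marker sums and the highest values of all 8 ligands among F1-P. Without both of them, which leaves F1-P replicate 1 to stand for its group with a spread assumed like that of F1-L, limma called 0 members and the likelihood ratio test called 1, Cxcl10 (log2 fold change −2.50, adjusted p = 0.0204 in edgeR). In that fit Ccl6 was at −0.49, Cxcl2 at −1.70, Ccl4 at −0.98 and Ccl3 at −0.53 on the log2 scale, Ccl9 turned to 0.81, and Ccl5 and Cxcl12 were not among the genes tested. Without F1-P replicate 1 instead, limma called 5 members, Ccl4, Ccl5, Ccl6, Cxcl2 and Cxcl10. That replicate was the lowest F1-P sample for all 8 ligands, so leaving it out widened every difference. No share over all genes is set beside this count. The part of the marker genes in these differences was not tested.

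In LSK, the same 2 groups of NZBW/F1 mice differed in 1 ligand by the likelihood ratio test. Ccl6 was higher in F1-L, with values of 2.10, 4.49 and 10.01 in F1-P and 70.5, 18.9 and 16.9 in F1-L. All F1-L samples lay above all F1-P samples, and F1-L replicate 1 was far above the rest. Ccl6 was the 1 member of 8 without overlap in this direction, against 10.4% of all genes. The log2 difference was 2.36 (standard error 0.639, limma adjusted p = 0.210, 0.0130 in edgeR's likelihood ratio test and 0.0448 in DESeq2). In limma 0 of 8 members were called, against 0.0279% of the 14332 genes, and 2 (Ccl6 higher, Cxcl10 lower) had an unadjusted p below 0.05, against 12.8% of all genes. The likelihood ratio test called 1 of 8, against 4.58%.

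Cxcl10 was lower on average in F1-L LSK, at 13.8, 36.1 and 23.3 in F1-P and 5.21, 10.4 and 15.5 in F1-L. The ranges overlapped. On the log2 scale the estimate was −1.17 (standard error 0.439, limma adjusted p = 0.331). Ccl9 was at 19.2, 14.9 and 49.7 in F1-P and 72.1, 22.2 and 121 in F1-L, with a wide spread in F1-L (log2 fold change 1.22, standard error 0.665, limma adjusted p = 0.505). The other 5 members were between −0.71 (Cxcl12) and 0.48 (Cxcl2), and the median of all 8 was −0.04, against −0.01 over all genes. Ccl3, Ccl4 and Ccl5 were within 0.13 of 0.

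All 11 neutrophil markers were higher in F1-L than in F1-P LSK at an unadjusted p below 0.05 and in the likelihood ratio test, with a median log2 fold change of 3.00, and 0 were called by limma. Among all genes, 8.58% were higher at that p and 3.45% were called higher by the likelihood ratio test. F1-L replicate 1 had the highest neutrophil sum and the highest Ccl6 value of all 12 LSK samples. Without it the log2 fold change of Ccl6 was 1.72 in limma (adjusted p = 0.2496) and 1.69 in edgeR's likelihood ratio test (adjusted p = 0.0810). In each of the 6 groups the sample with the highest neutrophil sum also had the highest Ccl6 value, such as B6-Y replicate 2, B6-O replicate 3 and F1-P CMP replicate 3. Whether the neutrophil transcripts account for the Ccl6 values was not tested.

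**Figure D2:**
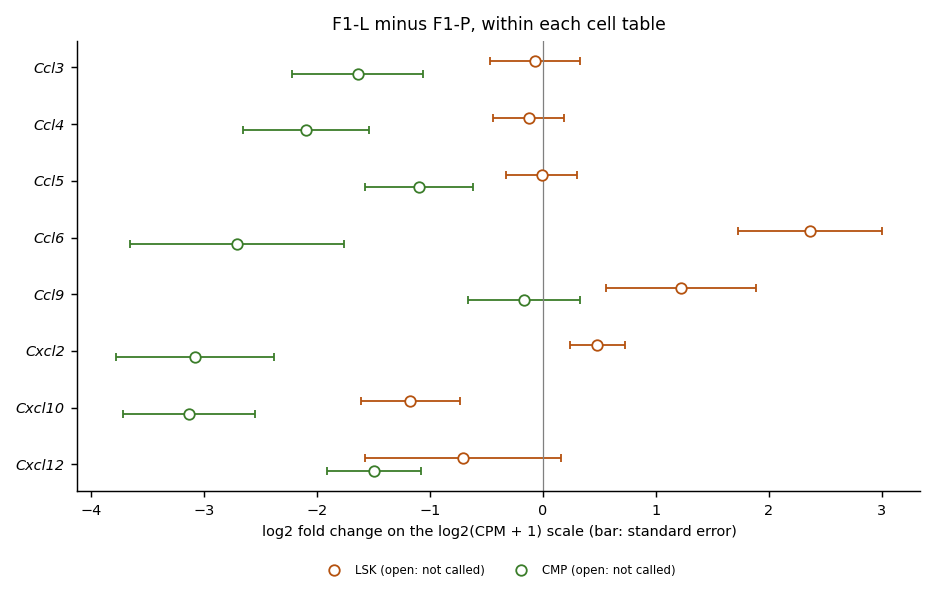
Log2 fold change of F1-L against F1-P for each ligand (x axis, on the log2(CPM + 1) scale, bars are standard errors), in LSK and in CMPs, 3 samples per group. All CMP estimates lie below 0, whereas in LSK Ccl6 lies at 2.36 and Ccl3, Ccl4 and Ccl5 lie near 0, and no point was called by limma after adjustment.

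The change from F1-P to F1-L was then compared between CMPs and LSK, as the difference of the 2 changes over the 14526 genes that passed the filter, of 17569 in both tables. Apart from the 1 added to the CPM, a change within each table does not depend on how the tables were scaled to each other. That 1 matters for low genes such as Cxcl12, at −0.79 in limma and −2.27 in the likelihood ratio test. All 8 estimates were negative, that is lower in CMPs than in LSK, with a median of −1.76 against 0.03 over all genes. Limma called 0 members (0% of all genes), and 4 were lower at an unadjusted p below 0.05, against 5.81% of all genes. The likelihood ratio test called 4 lower, against 3.13%, and DESeq2 called 4, against 3.02% in either direction.

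The difference was largest for Ccl6, whose mean was lower in F1-L CMPs and higher in F1-L LSK. The changes differed by −5.07 on the log2 scale (standard error 1.24, limma adjusted p = 0.304 and 0.000251 by the edgeR likelihood ratio test). For Cxcl2 they differed by −3.56 (standard error 0.797, limma adjusted p = 0.292 and 0.000883 by the edgeR likelihood ratio test). The likelihood ratio test of edgeR also called Ccl4 (adjusted p = 0.0397) and Cxcl10 (adjusted p = 0.0436), with limma estimates of −1.97 (standard error 0.690) and −1.96 (standard error 0.793). These calls changed with the samples left out. Without CMP F1-P replicate 1, limma called 3 members (Ccl4, Ccl6 and Cxcl2), and without CMP F1-P replicates 2 and 3 and LSK F1-L replicate 1 neither test called any. CMP F1-P replicate 1 was the lowest F1-P CMP sample for every ligand, and no share over all genes is set beside these counts. All 11 neutrophil markers also differed in this direction in the likelihood ratio test, against 3.13% of all genes, with a median of −7.21.

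Between the strains, Ccl5 was the ligand that differed most in LSK. Its CPM was 4.15, 9.76 and 7.98 in B6-Y and 4.95, 3.51 and 22.9 in B6-O, and 45.2, 46.6 and 49.3 in F1-P and 81.6, 33.3 and 37.2 in F1-L. Every NZBW/F1 sample lay above every C57BL/6 sample. It was the 1 of 8 members of which this held for 6 samples against 6, against 9.53% of all genes. At 12 weeks the log2 fold change was 2.599 (standard error 0.267, limma adjusted p = 0.000666). The likelihood ratio test put it at 2.71. At 28 to 36 weeks it was 2.47 (standard error 0.648, limma adjusted p = 0.0524, just above the threshold, and 0.0182 by the edgeR likelihood ratio test). Over both ages it was 2.53 (standard error 0.371, limma adjusted p = 0.000223, at most 0.00118 under every alternative).

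Ccl4 and Ccl3, which are neighbours on chromosome 11, had estimates in the other direction. Ccl4 was at 28.6, 29.9 and 49.2 in B6-Y and 22.8, 12.4 and 15.3 in F1-P LSK. The groups did not overlap. The log2 fold change was −1.05 (standard error 0.277, limma adjusted p = 0.0376). In the older mice Ccl4 was at 31.8, 12.3 and 27.5 in B6-O and 17.5, 9.42 and 19.8 in F1-L, and these overlapped. Over both ages Ccl4 was lower in NZBW/F1, with a log2 fold change of −0.79 (standard error 0.267, limma adjusted p = 0.0382). Ccl3 was at 43.0, 44.9 and 86.7 in B6-Y, 36.9, 16.8 and 28.3 in F1-P, 55.0, 16.9 and 45.1 in B6-O and 31.5, 13.8 and 34.5 in F1-L. The young groups did not overlap and the old ones did. At 12 weeks its log2 fold change was −1.05 (standard error 0.344, limma adjusted p = 0.0740 and 0.0218 by the edgeR likelihood ratio test), and over both ages −0.77 (standard error 0.334, limma adjusted p = 0.0997).

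Cxcl10 was higher in young NZBW/F1 LSK. It was at 6.51, 11.6 and 7.26 in B6-Y and 13.8, 36.1 and 23.3 in F1-P. All F1-P samples lay above all B6-Y samples. The log2 fold change was 1.36 (standard error 0.351, limma adjusted p = 0.0342). In B6-O it was at 5.79, 1.99 and 12.5, which overlapped the F1-L samples given above, and the log2 fold change was 0.69 (standard error 0.586, limma adjusted p = 0.476). Over both ages it was 1.03 (standard error 0.373, limma adjusted p = 0.0525 and 0.0485 by the edgeR likelihood ratio test), just to either side of the threshold.

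Limma called none of Cxcl2, Cxcl12, Ccl6 and Ccl9 between strains. Cxcl2 was at 6.17, 21.7 and 8.53 in B6-Y, 10.9, 15.8 and 19.9 in F1-P, 12.2, 1.42 and 17.6 in B6-O and 27.4, 18.6 and 19.4 in F1-L. In the older mice all F1-L samples lay above all B6-O samples, with a log2 fold change of 1.42 (standard error 0.709, limma adjusted p = 0.245). Cxcl12, the stromal ligand of Cxcr4, was at 2.82, 7.02 and 2.72 in B6-Y, 2.47, 21.6 and 29.7 in F1-P, 6.63, 2.81 and 8.83 in B6-O and 14.7, 7.71 and 3.05 in F1-L. F1-P replicates 2 and 3 were high and F1-P replicate 1 was the lowest of all 12 samples. At 12 weeks the log2 fold change was 1.47 (standard error 0.764, limma adjusted p = 0.239 and 0.0426 by the edgeR likelihood ratio test). Ccl6 was at 2.82, 23.0 and 4.27 in B6-Y and 9.99, 3.60 and 43.1 in B6-O, and Ccl9 at 51.5, 25.3 and 40.4 and 52.1, 28.2 and 47.9, all overlapping the NZBW/F1 samples of the same age. Over both ages Ccl6 differed by 0.36 (standard error 0.651) and Ccl9 by −0.059 (standard error 0.419), and neither was called.

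**Figure D3:**
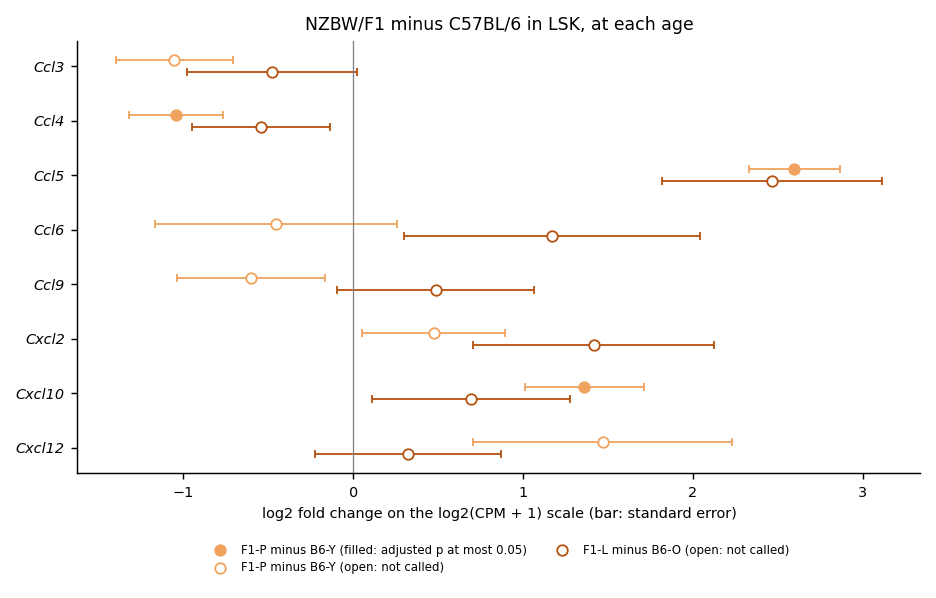
Log2 fold change of NZBW/F1 against C57BL/6 LSK for each ligand (x axis, on the log2(CPM + 1) scale, bars are standard errors), for the young pair F1-P and B6-Y and the old pair F1-L and B6-O, 3 samples per group. Filled points were called by limma, which were Ccl4, Ccl5 and Cxcl10 in the young pair and none in the old pair, where Ccl5 lies at 2.47.

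For F1-P against B6-Y limma called 3 of 8 members (Ccl4 lower, Ccl5 and Cxcl10 higher), while 16.2% of 14380 genes were called. The likelihood ratio test called 5, adding Ccl3 and Cxcl12, against 19.1%. Of the 8, 2 did not overlap upward (17.4% of all genes) and 2 downward (18.1%). For F1-L against B6-O limma called 0 of 8, against 11.6% of 14381 genes. There 1 member, Ccl5, had an unadjusted p below 0.05, against 27.5%, the likelihood ratio test called 1 (15.2%) and 2 did not overlap upward (17.5%). Over both ages limma called 2 of 8, against 19% of 15084 genes, and the likelihood ratio test 3, against 22.2%. The median of the 8 was 0.63, against −0.03 over all genes. The young and old comparisons use different samples, but the comparison over both ages contains them. With all 12 LSK samples in one fit, which takes the spread from all 4 groups, Ccl5 alone was called at 12 weeks.

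T and NK cell markers differed between the strains together with Ccl5. Of 9 markers, 7 were called higher in NZBW/F1 LSK over both ages by limma (Cd3g, Cd3e, Cd3d, Gzma, Klrd1, Klrb1c and Ncr1), with a median log2 fold change of 2.38. Gzma, a granule protease of T and NK cells, was at a CPM of 1.30, 2.46 and 2.06 in B6-Y and 23.5, 33.3 and 31.5 in F1-P. Ccl5 was highest in F1-L replicate 1 and, among C57BL/6 samples, in B6-O replicate 3, the samples with the highest sums of these markers in their strain. The 7 plasma cell markers were all called higher in NZBW/F1 LSK as well, with a median of 3.20. For this comparison over both ages limma called 19% of 15084 genes in either direction. Immunoglobulin genes took 16.8% to 36.6% of the reads of NZBW/F1 and 0.301% to 4.76% of C57BL/6 LSK samples. Summed monocyte and macrophage markers separated the strains in LSK too. Their CPM was 184 to 279 in B6-Y and 81.1 to 287 in B6-O, against 419 to 862 in F1-P and 455 to 797 in F1-L. Without the 3 LSK samples highest in neutrophil markers (B6-Y 2, B6-O 3 and F1-L 1), limma called Ccl5, Cxcl2 and Cxcl10 over both ages, with log2 fold changes of 2.81, 1.35 and 1.60, and Ccl4 was at −0.86 (adjusted p = 0.0706 in limma). No share over all genes is set beside these calls. The part of T and NK cell, plasma cell or monocyte and macrophage transcripts in the Ccl5 values was not tested.

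**Figure D4:**
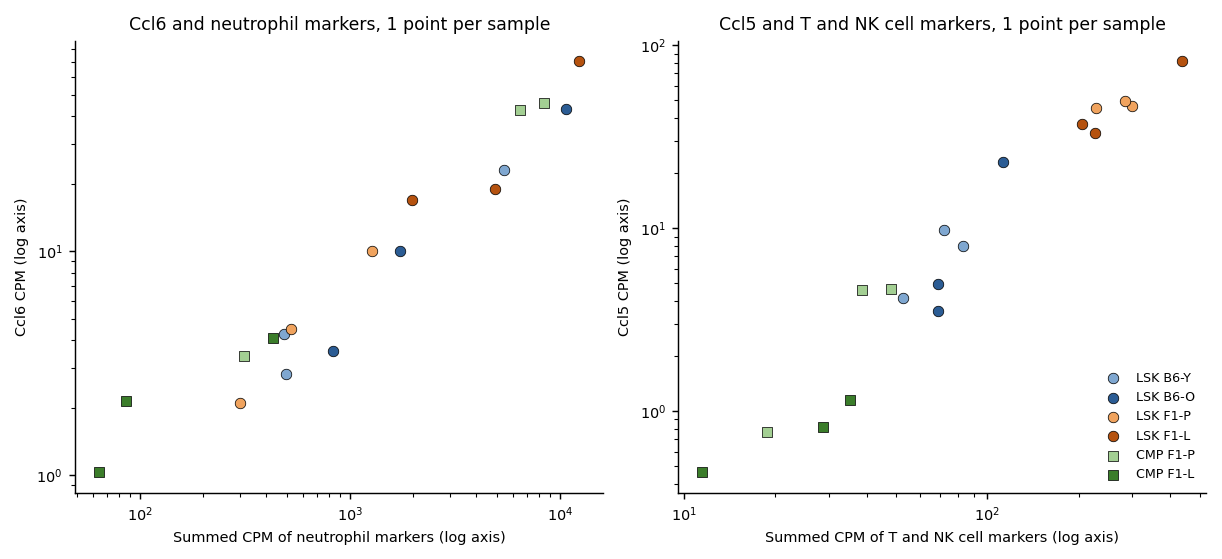
Left, CPM of Ccl6 against the summed CPM of 11 neutrophil markers, and right, CPM of Ccl5 against the summed CPM of 9 T and NK cell markers, with 1 point per sample and log axes. Ccl6 runs from 1.03 CPM at the lowest marker sum, in F1-L CMPs, to 70.5 at the highest, in F1-L LSK replicate 1, and the 6 NZBW/F1 LSK samples stand together at the upper right for Ccl5. The points share libraries, and CMP and LSK values come from separately normalized tables.

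With age alone, in C57BL/6 LSK, 0 of 8 ligands were called by limma for B6-O against B6-Y, as were 0% of 14005 genes. At an unadjusted p below 0.05 it was also 0 of 8, against 6.62% of all genes, and the likelihood ratio test, DESeq2 and the quasi-likelihood test called 0 members. The log2 fold changes ran from −0.65 for Ccl3 (standard error 0.459) to 0.74 for Ccl6 (standard error 0.933). The ranges of the 2 groups overlapped for all 8 members. The change with age was then compared with the change with age and disease in NZBW/F1 LSK. Of the 8 members limma called 0, as were 0% of 15084 genes, and 0 had an unadjusted p below 0.05, against 3.92% of all genes. The estimates ran from −1.15 for Cxcl12 (standard error 1.07) to 1.63 for Ccl6 (standard error 1.27), with an adjusted p of at least 0.976 in limma. The standard errors of up to 1.27 leave room for large differences.

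Levels in LSK and CMPs were set side by side without a test, because cell type and table cannot be told apart. In F1-P mice, Ccl5 was higher in every LSK sample than in every CMP sample and Ccl9 was lower in every one, while the other 6 overlapped. Of all genes, 28.6% did not overlap upward and 35.4% downward in LSK. In F1-L mice 6 members were higher in every LSK sample (Ccl4, Ccl5, Ccl6, Cxcl2, Cxcl10 and Cxcl12) and 0 lower, against 35.5% of all genes higher and 40% lower. Over all NZBW/F1 samples, 6 against 6, only Ccl5 did not overlap, higher in LSK, against 20.9% of all genes. One TMM scaling of the recovered reads over both tables gave the same members. B6-Y and B6-O LSK had Ccl5 at 3.51 to 22.9, of which 2 samples lay below the highest CMP value of 4.66.

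Among the receptors of these ligands, Cxcr3, the receptor of Cxcl10 on T cells, was at a CPM of 1.98, 4.997 and 2.58 in B6-Y and 9.69, 19.0 and 14.04 in F1-P, and its log2 fold change over both ages was 2.02 (standard error 0.307, limma adjusted p = 0.000305). In all, 8 of 19 receptors tested were called higher in NZBW/F1 LSK and 0 lower (median 0.55), while 19% of all genes were called in either direction.

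Cxcr2 and Ccr1, through which Cxcl2, Ccl6 and Ccl9 act, moved as the neutrophil markers did. Cxcr2, which is also on that list, was at 3.07, 45.1 and 57.9 in F1-P and 4.001, 1.19 and 3.83 in F1-L CMPs. Ccr1 was at 1.58, 21.1 and 24.05 and 0.500, 0.206 and 1.84. For both, F1-P replicate 1 lay within the F1-L range. In CMPs 0 of 8 receptors tested were called by limma and 4 were called lower by edgeR's likelihood ratio test (Ccr1, Ccr9, Ccrl2 and Cxcr2), with a median of −1.19. That test called 2.12% of all genes lower there. In LSK the likelihood ratio test called Ccr1 and Cxcr2 higher in F1-L, with an adjusted p in edgeR of 0.00861 and 0.0146, and called 3.45% of all genes higher. Cxcr4, the receptor of Cxcl12, was at 48.3, 114 and 123 in F1-P and 75.3, 45.1 and 85.7 in F1-L CMPs (log2 fold change −0.40, standard error 0.410, limma adjusted p = 0.755).

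Of the other chemokine ligands, 8 passed the filter over the 12 LSK samples and limma called 1 of them between strains, against 19% of all genes. The likelihood ratio test also called Ccl27a and Pf4 lower in NZBW/F1, against 22.2% of all genes called in either direction. Xcl1, a product of T and NK cells, was at 1.21, 3.11 and 1.58 in B6-Y, 1.52, 0.789 and 4.48 in B6-O, 22.8, 24.2 and 18.9 in F1-P and 29.3, 17.9 and 8.89 in F1-L. The strains did not overlap, and the log2 fold change was 2.81 (standard error 0.310, limma adjusted p = 2.28e-05). In CMPs 5 were tested and 0 were called by limma or by the likelihood ratio test. Pf4, the chemokine of platelets and megakaryocytes, was at 13.8, 90.0 and 9.01 in F1-P and 74.4, 69.8 and 40.2 in F1-L CMPs.

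Cxcl10 was set beside other interferon-inducible genes. In F1-P against B6-Y LSK, where Cxcl10 was higher, 6 of 11 such genes tested were called lower by limma (Ifi44, Ifit1, Ifit3, Mx1, Oasl2 and Usp18) and 0 higher, with a median log2 fold change of −1.10. Limma called 16.2% of all genes there in either direction. In F1-L against F1-P CMPs, where Cxcl10 had its largest difference, 0 of 10 were called by limma or by the likelihood ratio test, with a median of 0.49. Of all genes, limma called 0.00774% there and the likelihood ratio test 2.38%.

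Members that lie side by side differed in how closely their levels went together. Ccl3 and Ccl4 had a Pearson r of 0.984 over the 12 LSK samples on the log2(CPM + 1) scale, and each was the gene most like the other among 11326 genes with a mean CPM of at least 5. Their per-kb ratio ranged from 1.17 to 1.59 in LSK and from 1.42 to 3.15 in CMPs, where Ccl4 was relatively lower. The ratio of Ccl6 to Ccl9 ranged from 0.0929 to 1.66 in LSK. Ccl6 was most like Clec7a, Retnlg and Mmp8 in LSK (r of 0.989, 0.986 and 0.985), genes of myeloid cells of which Retnlg and Mmp8 are neutrophil markers. Ccl5 was most like Ighv5-9, Cd3g and Id2 (r of 0.987, 0.980 and 0.978), of which Cd3g encodes a chain of the T cell receptor complex. Cxcl2 was most like Hspa1b, Adam19 and Hspa1a (r of 0.924, 0.918 and 0.907), of which Hspa1a and Hspa1b encode heat shock proteins. For Cxcl10 they were Mcl1, Il10 and Iqcb1 (r of 0.971, 0.961 and 0.949), for Ccl9 Ms4a6c, Tm7sf3 and Acer3 (r of 0.882, 0.873 and 0.851) and for Cxcl12 Zfp983, Sh3bp2 and Osbpl2 (r of 0.923, 0.875 and 0.845). Over the 6 CMP samples every member had 3 genes with r of at least 0.99, among 10332 genes, so that likeness there tells members apart less. The samples share strain and marker differences, and these correlations are descriptions.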

How the data were processed

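Sorted LSK (12 samples) and CMPs (6 samples) were sequenced as single-end mRNA libraries. Alignment to mm10 was done by the authors in STAR 2.6, gene counts were taken with HTSeq, and edgeR served for scaling. The deposited values are CPM scaled by a factor per sample (a normalized signal), so columns do not share one total (the lowest is 832403 in LSK and 967456 in CMPs). All values (100%) were whole multiples of 1 read within a tolerance of 0.1 read, and the recovered reads entered the count tests. The LSK and CMP tables were normalized separately.

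The filter kept genes whose CPM reached 1 in 3 or more samples entering a fit. Testing used limma 3.58.1 (two-sided, lmFit and eBayes with trend) on log2(CPM + 1). The Benjamini-Hochberg adjustment covered the whole set of genes. Fold changes are on that scale and understate those of low genes. A call required adjusted p no higher than 0.05 together with a change of over 1.5-fold, the thresholds of the study's methods. Alternatives were edgeR 4.0.16 (likelihood ratio and quasi-likelihood tests), DESeq2 1.42.0, a pseudocount of 0.25, no filter, a mean CPM of at least 5, median of ratios and TMM without immunoglobulin genes, no fold minimum, a replicate block, all LSK samples in one fit and each sample left out. After the data were seen, fits without the samples highest in neutrophil markers were added. The tests were checked on simulated counts. The recovered reads of the listed genes came to 23772252 to 28493747 per LSK and 20001328 to 24761060 per CMP sample, and reads outside these genes were not counted.

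The members and gene lists were chosen with earlier results of these data known. All members are named in each comparison, as are genes of other lists that were called in a comparison (at most 6 a list, by size) or, for chemokine ligands and receptors, had a mean CPM of at least 10. Likeness names the 3 genes with the highest Pearson r. Gene IDs were matched to the GRCm38 annotation without their version (19770 of 19780 in LSK and 18421 of 18428 in CMPs). Replicates differed by more than sampling noise. One receptor gene is not reported here.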

Additional observations from a re-analysis of the deposited data

Results flagged for a closer look

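In 3 groups of 6 samples, 1 sample had a gap to the next that exceeded Dixon's 95% critical value for that size, out of 24 groups (8 ligands in C57BL/6 LSK, NZBW/F1 LSK and CMPs). Chance alone gives about 1 in 20 for samples from 1 normal distribution. These sets pool young and older mice on the CPM scale, so the rate here may differ. Ccl5 in C57BL/6 LSK was highest in B6-O replicate 3, at a CPM of 22.9 against 9.76 in the next sample, a gap of 0.678 of the range. Ccl5 in NZBW/F1 LSK was highest in F1-L replicate 1, at 81.6 against 49.3, a gap of 0.668. Ccl6 in NZBW/F1 LSK was highest in that same sample, at 70.5 against 18.9, a gap of 0.755. The same samples held the highest sums of neutrophil and of T and NK cell markers in their strain, and the part of those markers was not tested.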

How the results depend on the processing

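Over 64 single results, 670 values from alternatives that kept all samples gave 626 of the same direction and side of the threshold, 36 newly past it, 2 no longer past it and 6 with another sign. Those 6 were Ccl5 for LSK F1-L against F1-P (0.11, 0.11 and 0.10 in the quasi-likelihood test, the likelihood ratio test and DESeq2) and Ccl9 between strains (0.14, 0.14 and 0.17). No result changed sign past the threshold. The number of members called moved with the tool and with the samples left out. In CMPs it was 0 in limma, 5 in the likelihood ratio test and 5 in DESeq2, 0 to 5 with each sample left out, and 1 in the likelihood ratio test without F1-P replicates 2 and 3. For LSK F1-L against F1-P it was 1 in the likelihood ratio test and in DESeq2. For F1-P against B6-Y (3) it was 5 in the likelihood ratio test, 1 in a joint fit of all LSK samples, 1 to 5 with a sample left out and 6 in the likelihood ratio test without the sample highest in neutrophil markers. For F1-L against B6-O (0) it was 1 with median of ratios, TMM without immunoglobulin genes, the likelihood ratio test, DESeq2 and all LSK samples in one fit, 0 to 1 with a sample left out, and 1 (limma) and 3 (likelihood ratio test) without the samples highest in neutrophil markers. Between strains (2) it was 4 in DESeq2, 1 to 3 with a sample left out, and 4 in the likelihood ratio test without those samples. For the difference of the changes between CMPs and LSK (0) it was 4 in the likelihood ratio test and in DESeq2 and 0 to 3 with a sample left out. No share over all genes is set beside these counts, and the cause of these moves was not tested. Samples of the same replicate number had correlations of deviations from −0.45 to 0.62, which does not settle whether they were paired. A replicate block raised the strain count from 2 to 4.

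With each sample left out in turn, 33 of 522 values changed sign, in 16 results. The log2 fold changes then ranged over −0.60 to 0.25 for Ccl9 in CMPs, over −0.37 to 0.33 for Ccl3, −0.32 to 0.18 for Ccl4 and −0.41 to 0.23 for Ccl5 in LSK F1-L against F1-P, and over −0.61 to 0.59 for Ccl5, −0.14 to 1.54 for Ccl6, −0.14 to 0.40 for Ccl9, −1.03 to 0.44 for Cxcl2 and −1.03 to 0.056 for Cxcl10 in B6-O against B6-Y. They ranged over −0.97 to 0.35 for Ccl6 in F1-P against B6-Y, over −0.038 to 1.16 for Ccl9 and −0.15 to 0.83 for Cxcl12 in F1-L against B6-O, over −0.066 to 0.81 for Ccl6 and −0.35 to 0.18 for Ccl9 between strains, over −0.60 to 0.60 for Ccl5 in the difference between strains of the change with age, and over −1.38 to 0.19 for Cxcl12 in CMPs against LSK. Without the samples highest in neutrophil markers, an alternative chosen after seeing the data, 13 of 124 values changed sign. In limma and the likelihood ratio test these were Ccl9 in CMPs (0.71 and 0.81), Ccl5 (−0.39 and −0.51) and Ccl9 (−0.24 and −0.20) in B6-O against B6-Y, Ccl6 in F1-P against B6-Y (0.35 and 0.67) and Ccl5 in CMPs against LSK (0.42 and 0.43). In limma alone they were Cxcl10 (0.014) in the difference of the age changes and Cxcl12 (0.46) in CMPs against LSK, and in the likelihood ratio test alone Ccl5 (0.097) in the difference of the age changes. With 3 samples per group, differences within the spread given beside each value were not detectable.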
